A study of Mus musculus with 6 samples.

Results

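Ift122 encodes a subunit of complex A of intraflagellar transport, the two-way traffic of protein particles along the axoneme of the cilium. Its RNA was compared with that of 9 other transport genes in the liver of 3 B6.C3H-6T and 3 C57BL/6J mice. The 10 genes are Ift122 and Ift140 of complex A and Ift20, Ift46, Ift52, Ift57, Ift74, Ift80, Ift81 and Ift88 of complex B. All probe sets that the platform annotation pairs with one of these genes alone were taken, which gave 15 of the 45037 probe sets tested, 3 for complex A and 12 for complex B. The genes were chosen with the strain difference of Ift122 already known, so the strain differences of these 15 probe sets are given as a description and not as tests.

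B6.C3H-6T is a congenic strain with DNA of C3H origin on chromosome 6 in a C57BL/6J background, and the series title describes it as having low serum IGF-1. C57BL/6J is the background strain. The mice of both strains were female, 8 weeks old and fed chow, and each array held the liver RNA of 1 mouse, without pooling. The labels give neither the limits of the C3H segment nor any batch or litter. Values are log2 expression values (RMA), on which a difference of 1 is a change by a factor of 2. Array medians lay between 6.07 and 6.11, and correlations between arrays over probe sets between 0.994 and 0.997. Hepatocyte markers, which fit the label of liver, were measured by 16 probe sets that lay between 9.23 and 14.56. Of these, 12 were higher and 4 lower in B6.C3H-6T, with a median difference of 0.02 (log2), against 0.02 for all probe sets. None passed an adjusted p of 0.05 in limma. Unadjusted, 2 had a p under 0.05, both higher (12.5%, against 10.6% of all). Of the 18 probe sets of cholangiocyte markers, none passed in limma and 1 had an unadjusted p under 0.05 (5.56%, against 10.6% of all). Their summed signal on the linear scale overlapped between the strains, at 1759 to 1991 in B6.C3H-6T and 1808 to 1922 in C57BL/6J. The 11 probe sets of Kupffer cell markers were all lower in B6.C3H-6T, with sums of 7586 to 8963 in B6.C3H-6T and 9576 to 11042 in C57BL/6J. None of these 11 passed an adjusted p of 0.05 in limma, and 9 (81.8%) had an unadjusted p under 0.05. Of all probe sets 10.6% had one, 4.82% on the lower side. The part of the Kupffer cell markers in the differences below was not tested. In whole liver, fewer cells of a type and less RNA per cell cannot be told apart.

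Cilia are built and kept up by trains of 2 protein complexes. Complex B moves outward from the base with kinesin-2 and carries tubulin and other building blocks, and complex A is needed for the return journey with dynein-2 and, with the adaptor Tulp3, for the entry of membrane receptors. Hedgehog signalling in mammals runs through the primary cilium. In liver the primary cilium is known mainly from cholangiocytes, the cells that line the bile ducts, while hepatocytes generally lack one.

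Ift122 was lower in B6.C3H-6T livers on both of its probe sets. Probe set 1441259_s_at read 4.48, 4.57 and 4.60 in B6.C3H-6T livers, against 5.40, 5.52 and 5.47 in C57BL/6J livers. Every B6.C3H-6T liver lay below every C57BL/6J liver, and the difference of the means was 15.2 times the pooled SD within a strain. That SD, 0.06, was below the 0.07 to 0.13 of the 13 probe sets of the other 9 genes. The means were 4.55 ± 0.06 in B6.C3H-6T and 5.46 ± 0.06 in C57BL/6J (SD, n = 3 each). The difference was -0.91 ± 0.07 (B6.C3H-6T minus C57BL/6J, log2, ± SE), or 1.88-fold lower in B6.C3H-6T.

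The other probe set, 1427239_at, showed the same order with a smaller gap. It read 4.77, 4.55 and 4.59 in B6.C3H-6T livers, against 5.0, 5.26 and 5.04 in C57BL/6J livers, again without overlap. Its difference was -0.47 ± 0.09, or 1.38-fold lower in B6.C3H-6T, and was 3.65 times its pooled SD within a strain. Set against each other within an array, 1441259_s_at minus 1427239_at was -0.29, 0.02 and 0.01 in B6.C3H-6T and 0.40, 0.26 and 0.42 in C57BL/6J, so the probe sets differed between the strains by unequal amounts. The suffix _s_at marks a probe set whose probes were predicted to match more than one transcript, and _at one predicted to match a single transcript. Both lay in the dim part of the arrays. In B6.C3H-6T 17.5% of all probe sets had a lower mean than 1441259_s_at and 19.3% a lower mean than 1427239_at, and in C57BL/6J 37.7% and 30.1%. No detection calls were used, so how much of the B6.C3H-6T value is background was not measured.

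**Figure D1:**
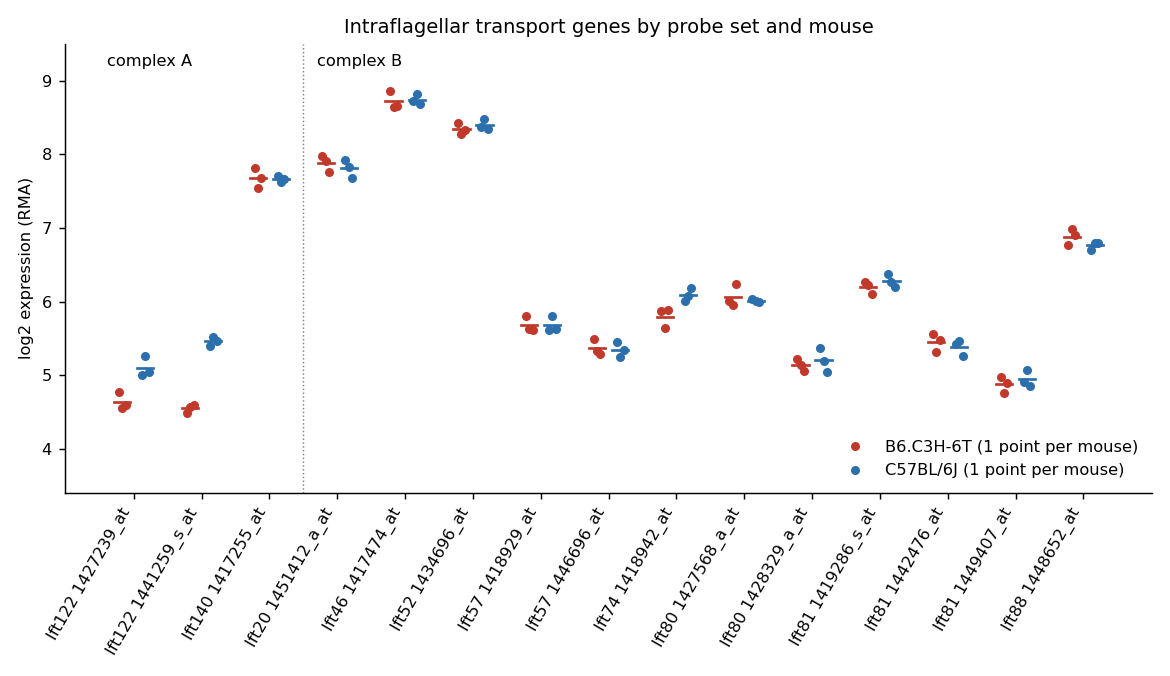
Log2 expression of the 15 probe sets of the 10 transport genes, with 1 point per mouse, B6.C3H-6T in red on the left of each pair and C57BL/6J in blue on the right, and a bar at each mean. The strains are apart at both probe sets of Ift122 and at Ift74, and overlap at the other 12.

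Ift122 lies on chromosome 6, and the gene next to it in the RefSeq gene table is Mbd4, which encodes a DNA glycosylase that repairs mismatched bases. The RefSeq promoter window of Mbd4 is shown because 213 of its 300 bases lie inside the annotated interval of Ift122. Windows hold 250 bases before and 50 after a gene's start, in assembly GRCm38.p6. They were matched by symbol for 7 of the 10 genes and for 13 other subunits, and Ift122, Ift80 and Ift81 had none. The windows were searched on both strands for GTTGCC, a core of the X-box bound by RFX factors, which drive many cilium genes. It was present in 3 of the 7 windows of the transport genes and in 6 of 13 windows of other subunits, against 12.5% of all 32851 windows. A match is a description and not a binding site. The windows of Ift140, the other complex A gene, and of Ift57, which holds the motif more than once, are shown beside that of Mbd4, 5′ to 3′ along the gene's own strand, with the motif in capitals.
Mbd4, chr6:115853292-115853591, minus strand, no match: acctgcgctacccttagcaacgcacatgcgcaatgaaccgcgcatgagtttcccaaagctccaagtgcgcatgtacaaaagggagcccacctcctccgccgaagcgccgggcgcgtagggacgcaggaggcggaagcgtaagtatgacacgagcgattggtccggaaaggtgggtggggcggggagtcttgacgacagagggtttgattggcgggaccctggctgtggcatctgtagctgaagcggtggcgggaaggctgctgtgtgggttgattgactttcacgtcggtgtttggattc
Ift140, chr17:25015836-25016135, plus strand: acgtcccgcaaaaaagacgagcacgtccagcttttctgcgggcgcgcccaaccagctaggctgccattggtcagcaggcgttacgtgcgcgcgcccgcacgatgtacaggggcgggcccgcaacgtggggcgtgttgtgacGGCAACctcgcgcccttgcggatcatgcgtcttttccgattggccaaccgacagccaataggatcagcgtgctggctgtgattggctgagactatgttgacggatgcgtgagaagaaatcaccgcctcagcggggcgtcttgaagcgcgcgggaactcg
Ift57, chr16:49699044-49699343, plus strand: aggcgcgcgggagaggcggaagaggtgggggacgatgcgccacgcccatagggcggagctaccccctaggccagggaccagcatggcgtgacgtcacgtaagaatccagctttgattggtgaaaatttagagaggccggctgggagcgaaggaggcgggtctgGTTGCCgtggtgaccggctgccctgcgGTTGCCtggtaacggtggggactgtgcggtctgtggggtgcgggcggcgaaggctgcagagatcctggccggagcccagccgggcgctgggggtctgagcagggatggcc

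Ift140, the other complex A gene measured here, encodes a core subunit of the complex, as Ift122 does. It read 7.82, 7.54 and 7.68 in B6.C3H-6T livers, against 7.71, 7.62 and 7.66 in C57BL/6J livers. The strains overlapped, and the difference was 0.02 ± 0.08. The median over the 3 probe sets of complex A, -0.47, is therefore the value of an Ift122 probe set. The other 4 complex A subunits, Wdr19, Wdr35, Ttc21b and Ift43, were taken from a list of cilium genes. None of their 7 probe sets passed an adjusted p of 0.05 in limma, and 1 had an unadjusted p under 0.05 (14.3%, against 10.6% of all). That was Wdr35, at 5.41, 5.48 and 5.37 in B6.C3H-6T and 5.23, 5.37 and 5.12 in C57BL/6J, a difference of 0.18 ± 0.08 (adjusted p = 0.471) on 1 of its probe sets, while the other differed by -0.01 ± 0.11. The probe sets of Wdr19 differed by -0.13 ± 0.07 (adjusted p = 0.568) and -0.09 ± 0.10, and those of Ttc21b by -0.09 ± 0.08 (adjusted p = 0.733) and 0.03 ± 0.07. The strains overlapped at all 7, whose median difference was -0.01.

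The complex B genes lay close to 0, with a median difference of -0.01 over 12 probe sets, 7 lower and 5 higher in B6.C3H-6T. Farthest from 0 was Ift74, whose protein joins that of Ift81 to bind tubulin cargo. Ift74 read 5.87, 5.63 and 5.88 in B6.C3H-6T livers, against 6.01, 6.07 and 6.18 in C57BL/6J livers. The strains did not overlap, and the difference was -0.29 ± 0.09, a 1.22-fold lower value in B6.C3H-6T. Among the 12 probe sets, 1 had an unadjusted p under 0.05 in limma (8.33%, against 10.6% of all probe sets). That was Ift74, which did not pass an adjusted p of 0.05 (adjusted p = 0.330). Its partner Ift81 overlapped on all 3 of its probe sets, with differences of -0.09 ± 0.08, 0.07 ± 0.09 and -0.07 ± 0.08.

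Ift88, known as polaris, is a core subunit whose hypomorphic mouse mutant has short cilia and cysts in kidney and bile ducts. It read 6.77, 6.98 and 6.90 in B6.C3H-6T livers and 6.69, 6.80 and 6.80 in C57BL/6J livers. The strains overlapped in part, and its difference of 0.12 ± 0.07 was the highest among the 15. The other core genes Ift52 (-0.06 ± 0.07) and Ift46 (-0.02 ± 0.08) overlapped. So did the genes of the peripheral part of complex B. Ift20, whose protein is also found at the Golgi, differed by 0.07 ± 0.09. The probe sets of Ift57 differed by -0.00 ± 0.08 and 0.02 ± 0.08, and those of Ift80, which encodes a WD-repeat subunit, by 0.05 ± 0.08 and -0.07 ± 0.09. Without Ift122 the SD within a strain, pooled over both, ran from 0.07 to 0.13, and 12 of 13 probe sets differed by less than 0.12 in either direction. The 9 genes lie on 9 chromosomes, none of them chromosome 6.

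Counted over the 10 genes, 3 of 15 probe sets had strains that did not overlap, all lower in B6.C3H-6T. Over all probe sets 6.44% were lower and 9.58% higher without overlap. In limma 1 of 15 passed an adjusted p of 0.05, the Ift122 probe set 1441259_s_at, against 0.0577% of all probe sets (0.0466% lower, 0.0111% higher). Since the genes were chosen on this contrast, nothing is read from these counts. The median over the 15 was -0.02, and that of all probe sets 0.02.

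**Figure D2:**
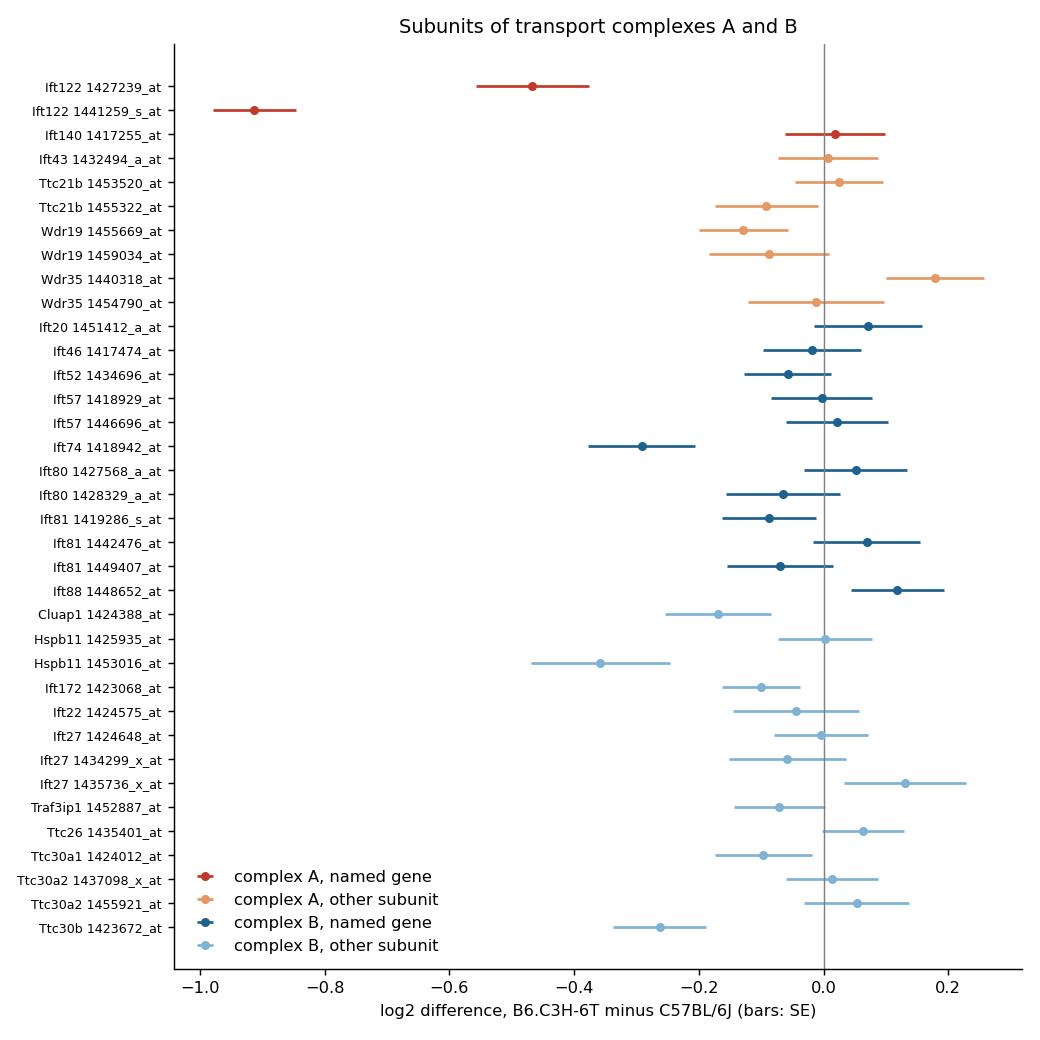
Log2 difference (B6.C3H-6T minus C57BL/6J, bars are SE) of each probe set of the 10 named genes and of the other subunits of complexes A and B. The probe sets of Ift122 lie at -0.91 and -0.47, and the next lowest value is the -0.36 of an Hspb11 probe set.

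The next comparison followed the rest of the ciliary machinery. In B6.C3H-6T livers, none of 192 probe sets of 99 other cilium genes passed an adjusted p of 0.05 in limma, in a table where 0.0577% passed. At an unadjusted p under 0.05 there were 26 (13.5%, against 10.6% of all probe sets), 13 lower (4.82% of all) and 13 higher (5.74% of all), and 19 (9.90%, against 8.53% of all) in a fit without moderated variances, which also called 0. The strains did not overlap at 31 of the 192, 16 lower and 15 higher in B6.C3H-6T. Of all probe sets 16.0% had no overlap, 6.44% lower and 9.58% higher. Where a gene has several probe sets, the value given first is that of the probe set with the lowest p, and those of its other probe sets follow. Among the 14 probe sets of other complex B subunits, 2 had an unadjusted p under 0.05 (14.3%, against 10.6% of all probe sets). Both were lower, against 4.82% of all probe sets on that side. Ttc30b, a subunit of the complex B core, read 6.88, 6.71 and 6.91 in B6.C3H-6T and 7.08, 7.15 and 7.06 in C57BL/6J (-0.26 ± 0.07, adjusted p = 0.320). The strains did not overlap at it, and probes of Ttc30b may also match its close paralogs Ttc30a1 and Ttc30a2. Hspb11, also called Ift25, differed by -0.36 ± 0.11 on 1 of its probe sets (adjusted p = 0.351) and by 0.00 ± 0.08 on the other. Cluap1 differed by -0.17 ± 0.09 (adjusted p = 0.525), also without overlap.

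The motor probe sets differed in both directions. Of 15 probe sets of kinesin-2, which drives outward transport, 3 had an unadjusted p under 0.05 (20%, against 10.6% of all probe sets). They were 1 of Kifap3 (-0.25 ± 0.08), 1 of Kif3a (-0.18 ± 0.07) and 1 of Kif17 (0.17 ± 0.07). The other probe set of Kifap3 differed by -0.06, the other 3 of Kif3a by -0.11, -0.01 and 0.12, and the other 2 of Kif17 by 0.14 and 0.00, all with overlapping strains. Of 18 probe sets of dynein-2, the motor of the return journey, there were also 3 (16.7%). They were 1 each of the light chain genes Tctex1d2 (0.20 ± 0.08) and Dynlt3 (0.17 ± 0.07) and the only one of Dynlrb1 (-0.15 ± 0.06). The other probe set of Tctex1d2 differed by 0.04, and the other 3 of Dynlt3 by 0.08, -0.03 and -0.04. Dynlt3 and Dynlrb1 serve cytoplasmic dynein as well. Adjusted p-values of these 6 lay between 0.386 and 0.454.

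The BBSome carries membrane proteins out of the cilium. Its list with adaptors had 7 of 30 probe sets at an unadjusted p under 0.05 (23.3%, against 10.6% of all probe sets). Of these, 5 were lower (4.82% of all) and 2 higher (5.74% of all). Lztfl1, a regulator of the BBSome, read 4.72, 4.55 and 4.77 in B6.C3H-6T livers, against 5.09, 5.04 and 5.0 in C57BL/6J livers, without overlap (-0.36 ± 0.08, adjusted p = 0.229). Its other 4 probe sets differed by -0.32, -0.20, -0.03 and 0.03, and the strains overlapped at the last 3. Tulp3, which links complex A to membrane cargo and lies on chromosome 6 like Ift122, differed between its own probe sets. The 1 named by the rule read 4.94, 5.24 and 5.41 in B6.C3H-6T and 5.53, 5.57 and 5.74 in C57BL/6J (-0.41 ± 0.12, adjusted p = 0.322). The other 2 differed by 0.16 ± 0.08 and -0.01 ± 0.07, and the strains overlapped at both. Bbs4, a subunit of the BBSome, differed by 0.24 ± 0.08 on 1 of 4 probe sets (adjusted p = 0.369). The others differed by 0.20, 0.03 and 0.03 with overlap.

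Among small GTPases of the cilium and their partners 3 of 21 probe sets had an unadjusted p under 0.05 (14.3%, against 10.6% of all). They were 2 of Unc119b, which carries lipid-modified proteins to the cilium (-0.24 ± 0.08 and -0.23 ± 0.09), and 1 of Rab23, a GTPase that opposes Hedgehog signalling (0.38 ± 0.16). The third probe set of Unc119b differed by -0.09, and the other 2 of Rab23 by 0.35 and 0.20. Rab11a differed by -0.15 ± 0.08 on 1 probe set and by 0.01 on the other. None of 28 probe sets of the transition zone, the gate at the base of the cilium, had an unadjusted p under 0.05, and its nearest were of Nphp4 (0.15 ± 0.08, with 0.10 on its other probe set), Tctn3 (0.16 ± 0.09, with 0.04 and 0.11) and Cc2d2a (-0.13 ± 0.08).

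The list of ciliary receptors, adenylyl cyclases and polycystins held the largest difference among the 192. Adcy6, an adenylyl cyclase gene, read 7.98, 7.57 and 8.07 in B6.C3H-6T livers, against 8.50, 8.54 and 8.42 in C57BL/6J livers. The strains did not overlap (-0.61 ± 0.12, adjusted p = 0.217). Adcy3, whose protein marks neuronal cilia, differed by 0.41 ± 0.12 on 1 of 4 probe sets (adjusted p = 0.330), with overlap, and by 0.15, 0.07 and -0.07 on the others. The ion channel gene Trpv4 differed by 0.15 ± 0.06. Of 33 Hedgehog pathway probe sets 4 had an unadjusted p under 0.05 (12.1%, against 10.6% of all probe sets). All 4 were higher in B6.C3H-6T, against 5.74% of all probe sets on that side. They were 1 of Hhip, a ligand antagonist (0.23 ± 0.08), 2 of Sufu, an inhibitor of Gli factors (0.15 ± 0.06 and 0.20 ± 0.09), and that of the kinesin-like Kif7 (0.16 ± 0.07), with an adjusted p of 0.368 to 0.471. The other 3 probe sets of Hhip differed by -0.03, -0.08 and -0.04, and the third of Sufu by 0.05, all with overlap. Smo, the transducer of the pathway, also lies on chromosome 6, and its 3 probe sets differed by -0.18 ± 0.08, -0.29 ± 0.15 and -0.01 ± 0.12 with overlapping strains. The list of transcription factors of cilium genes had 0 of 14 at an unadjusted p under 0.05, and probe sets of Rfx1 (-0.17 ± 0.08), Rfx2 (0.13 ± 0.08) and Rfx4 (-0.23 ± 0.15) were nearest. The other probe sets differed by -0.12 for Rfx1, by 0.07, -0.01 and -0.04 for Rfx2, and by 0.03 for Rfx4. List medians lay between -0.05 and 0.07, against 0.02 for all probe sets.

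**Figure D3:**
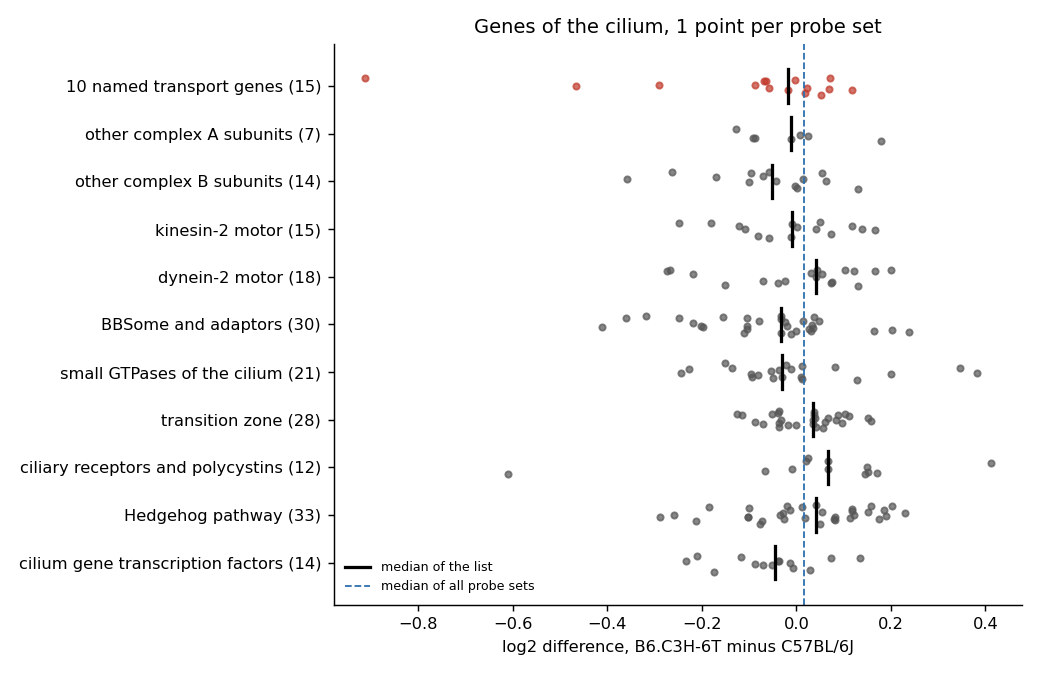
Log2 difference of each probe set of the 10 transport genes (red) and of 10 lists of other cilium genes (grey), with the median of each list as a black bar, that of all probe sets as a dashed line, and the number of probe sets in parentheses. The list medians stay between -0.05 and 0.07, and the Ift122 probe sets lie to the left of their own list.

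The last comparison placed Ift122 among its neighbours on chromosome 6. The 10 genes on each side with a probe set of their own had 43 probe sets, 18 lower and 25 higher in B6.C3H-6T, with a median of 0.03. None passed an adjusted p of 0.05 in limma or in the fit without moderated variances, where 10 (23.3%, against 8.53% of all) had an unadjusted p under 0.05. In limma 11 of 43 (25.6%) had one, against 13.4% of the 1925 probe sets of chromosome 6 and 10.6% of all. Of the 11, 8 were lower (4.82% of all probe sets) and 3 higher (5.74% of all). Of the 1925 of chromosome 6, 154 had one on the lower side and 104 on the higher side. Mbd4, which adjoins Ift122, read 5.46 ± 0.07 in B6.C3H-6T and 5.86 ± 0.13 in C57BL/6J on 1449490_at (SD, n = 3 each). The strains did not overlap there (-0.40 ± 0.08, adjusted p = 0.224). Its other 2 probe sets differed by -0.04 ± 0.06 and -0.12 ± 0.09 with overlap.

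The gene on the other side, H1f8, which encodes a linker histone of the oocyte, differed by -0.07 ± 0.22, and Plxnd1, a semaphorin receptor gene, by 0.10 ± 0.07. Farther out, Pparg, which encodes a nuclear receptor of fat cells, differed by -0.66 ± 0.10 and the ubiquitin ligase gene Marchf8 by -0.56 ± 0.08 (adjusted p = 0.0813 each). Each is the sixth gene from Ift122, on opposite sides. Zfand4 differed by -0.67 ± 0.18 (adjusted p = 0.305) and Rassf4 by -0.41 ± 0.10 (adjusted p = 0.265) on 1 probe set and by -0.25 and 0.03 on the others. Cand2, which encodes a regulator of cullin ligases, differed by -0.27 ± 0.08 on 1 probe set and 0.08 ± 0.06 on the other. The lipoxygenase gene Alox5, between Marchf8 and Rassf4, was on the higher side at 0.23 ± 0.08. Tmcc1, 3 genes from Ift122, differed in both directions. Its probe sets stood at -0.20 ± 0.07 and 0.23 ± 0.07 without overlap, and at -0.14 and 0.06 with overlap. Syn2 differed by 0.23 ± 0.10 on 1 probe set, with overlap, and by -0.09 to 0.22 on the others. Genes with lower and with higher values were interspersed along the stretch.

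**Figure D4:**
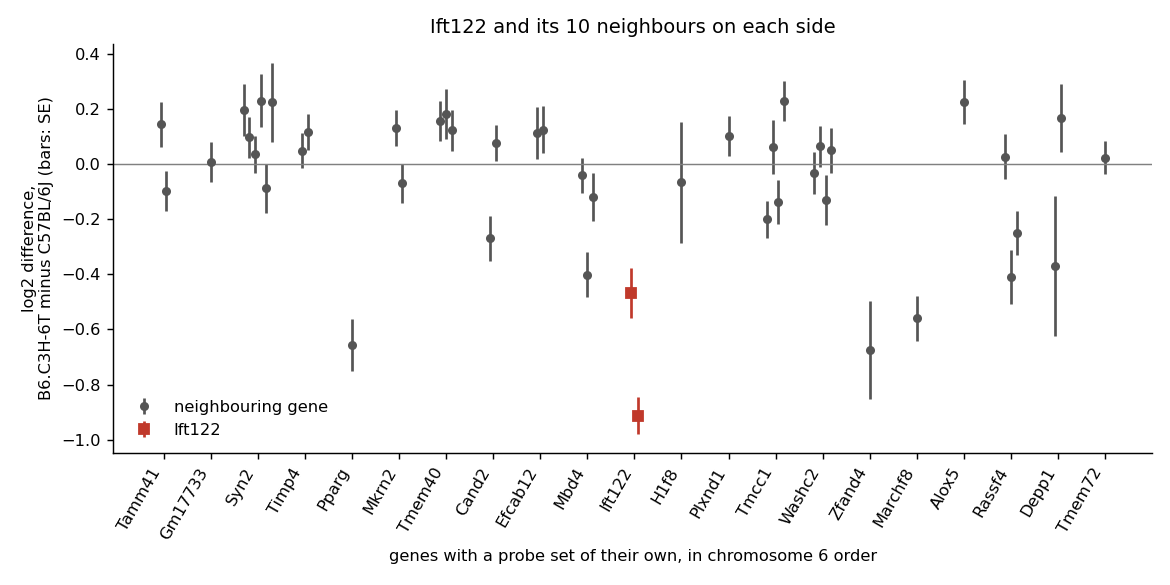
Log2 difference (B6.C3H-6T minus C57BL/6J, bars are SE) of each probe set of Ift122 (red squares) and of the 10 genes on each side in chromosome order (grey). Both Ift122 probe sets lie below 0, and the values of its neighbours lie between -0.67 and 0.23.

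The genes whose pattern over the 6 arrays was most like that of Ift122 were found by the root mean square difference of log2 values, each centred on its probe set's mean, from 1441259_s_at. The nearest 6 were Fitm1 (0.100), which encodes a protein of fat storage, the autophagy gene Atg7 (0.104), the snoRNA host gene Snhg1 (0.110), the ganglioside synthesis gene St3gal5 (0.144), Pgap1 (0.161), which acts on GPI anchors, and the lipid transfer gene Plekha8 (0.162). Atg7, St3gal5 and Plekha8 lie on chromosome 6. All 6 were lower in every B6.C3H-6T liver, by differences of -0.77 to -0.99. The measure picks genes with a strain difference of like size, so this is a description. Among the transport genes the other Ift122 probe set lay at 0.250 and Ift74 at 0.328, and the remaining 12 probe sets at 0.428 to 0.517.

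**Figure D5:**
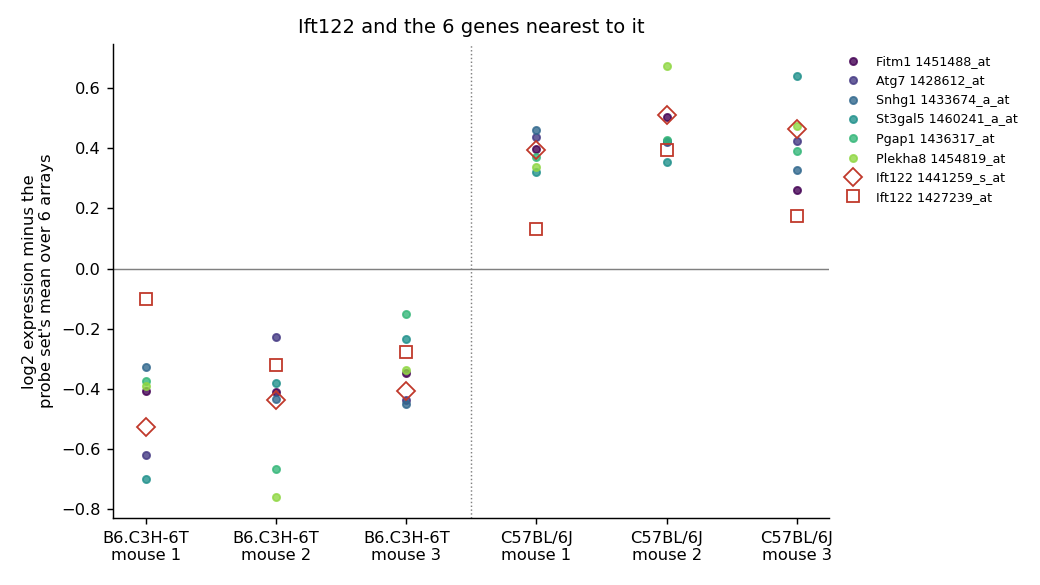
Log2 expression minus the probe set's mean over the 6 arrays, for both Ift122 probe sets (open red symbols) and the 6 genes nearest to 1441259_s_at (filled points), with 1 column per mouse. Every plotted value is below 0 in the B6.C3H-6T mice and above 0 in the C57BL/6J mice.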

How the data were processed

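Liver RNA was hybridised to 6 Affymetrix arrays. The authors deposited log2 expression values. These came from RMA (affy), of versions not given in the sources used here, per the submitters' processing notes, and images were quantified with GCOS 1.2, per the labels. RNA was copied from an oligo(dT) primer, per the labels' protocols, so a probe set reads mainly the end of a transcript near its poly(A) tail, and a sequence difference between strains under a probe can change its signal.

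Of 45101 probe sets 64 controls were left out. The platform annotation paired 34945 with 1 gene, 932 with several and 9160 with none; symbols were updated through a RefSeq table (GRCm38.p6). The comparison used lmFit and eBayes of limma 3.58.1 (R 4.3.3) with no covariate and no filter, and p-values were adjusted by Benjamini-Hochberg over all 45037 probe sets with 0.05 as threshold, after a test on simulated data. The number of arrays limits the precision. Replicates are separate mice numbered by accession order, and the labels pair none.

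The members and lists were chosen with earlier results of these data known. Named genes are all members, up to 3 of smallest p per list, up to 6 such neighbours and the 6 nearest genes. Other probe sets of a named gene, and H1f8, Plxnd1, Alox5, Tmcc1, Syn2 and Smo, were named after their values were seen. Marker lists covered hepatocytes, cholangiocytes, stellate, endothelial, Kupffer, lymphoid and motile ciliated cells. Alternatives changed the scaling, the dim filter, the variance moderation, the probe sets tested and the arrays.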

Additional observations from a re-analysis of the deposited data

How the results depend on the processing

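The Ift122 difference stayed below 0 under every alternative that kept its probe sets, at -0.94 to -0.88 for 1441259_s_at and -0.53 to -0.39 for 1427239_at without 1 array. Both probe sets are below the dim filter, which left 0 of the transport probe sets past the threshold and a complex A median of 0.018, that of Ift140 alone. With the _x_at and _s_at probe sets left out the count was also 0 and the median -0.22, since the Ift122 probe set 1441259_s_at was removed. Without moderated variances 0 transport probe sets passed, and 0 lower and 0 higher probe sets passed in the whole table, in place of 21 and 5. With 1 probe set per gene these were 11 and 2, with fewer features tested. Leaving out 1 array kept the transport count at 1, while the whole table gave 9 to 14 lower and 2 to 4 higher calls. Lower calls numbered 9 without C57BL/6J replicate 3, 10 without replicate 2, 12 without replicate 1, and 13 on leaving out either B6.C3H-6T replicate 1 or replicate 3. Of the higher calls 2 or 3 were left without each array except B6.C3H-6T replicate 1. Of the 192 probe sets of other cilium genes and the 43 of neighbours, 0 passed the threshold under any alternative, while 67 and 9 changed sign under at least 1, the largest of which had differed by 0.122 in size. Among them were H1f8, at -0.23 to 0.17 without 1 array and above 0 without B6.C3H-6T replicate 3 (0.13) or C57BL/6J replicate 2 (0.17), and the third Smo probe set, at -0.12 to 0.081 and above 0 without the same arrays (0.081 and 0.079). Outside these lists the second Dnah9 probe set, at 0.020, went to -0.0062 with arrays centred on a common median, to -0.014 with quantile normalization and to -0.037 to 0.051 without 1 array, below 0 without B6.C3H-6T replicate 3 (-0.0100) or C57BL/6J replicate 2 (-0.037). The 6 nearest genes stayed lower under every alternative that kept them. No paired analysis was possible because the labels pair no mice across the strains.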

Other observations

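Genes of motile cilia, which line airways and oviducts and are not a feature of liver, had 14 probe sets of 9 genes, 7 lower and 7 higher in B6.C3H-6T. None passed an adjusted p of 0.05 in limma, and 3 had an unadjusted p under 0.05 (21.4%, against 10.6% of all probe sets). Dnaic1, a dynein intermediate chain gene, read 6.07, 6.09 and 6.29 in B6.C3H-6T livers, against 6.39, 6.34 and 6.44 in C57BL/6J livers (-0.24 ± 0.08, adjusted p = 0.361), and its other probe set differed by -0.26. Ccdc40, needed for axoneme assembly, differed by 0.21 ± 0.07 (adjusted p = 0.364) and Dnah9 by 0.13 ± 0.07 on 1 probe set and 0.020 on the other. The stellate, endothelial and lymphoid marker lists, of 19, 10 and 12 probe sets, had medians of -0.00, -0.02 and -0.02. None of their probe sets passed in limma. At an unadjusted p under 0.05 there were 0, 1 and 1 (0%, 10% and 8.33%, against 10.6% of all probe sets).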
